A study of Homo sapiens with 6 samples.

Results

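The antioxidant genes controlled by the transcription factor NRF2 were followed in CAL62 cells, an established anaplastic thyroid carcinoma (ATC) cell line, after treatment with erianin. The set holds 9 genes: HMOX1, NQO1, GCLM, GCLC, TXNRD1, SRXN1, SLC7A11, OSGIN1 and NFE2L2, the gene of NRF2 itself. They were chosen by symbol, with earlier results of these data known. They are 9 of 39327 rows with a gene identifier, and all 9 were among the 12821 genes that passed the filter on low counts. Each was found by its Ensembl identifier, and of rows that share an identifier the one with most counts was taken.

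The study sequenced RNA of wild-type CAL62 cells kept for 48 h in 50 nM erianin, a small molecule from Dendrobium, or in its solvent DMSO at an equal concentration. Each group had 3 libraries of 1 cell line at 1 dose and 1 time. The labels do not say whether the 3 libraries came from separate cultures, so p-values measure the spread between these libraries, which may be technical. Reads on named genes ranged from 25776301 to 34107727 per library.

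NRF2 is a basic leucine zipper factor that the adaptor KEAP1, with the ubiquitin ligase scaffold CUL3, marks for degradation in unstressed cells. Oxidants and electrophiles modify cysteines of KEAP1, NRF2 then accumulates, pairs with a small MAF protein and binds antioxidant response elements (AREs) of genes for glutathione synthesis, thioredoxin recycling, quinone reduction and heme breakdown. BACH1 competes for the same elements and is released from them by heme, and HMOX1 is a well-known BACH1 target. Since NRF2 is controlled mainly at the protein level, the RNA level of NFE2L2 is a poor guide to its activity, and the protein was not measured here.

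Promoter sequence was read from RefSeq on GRCh38.p14 to show where the members carry an ARE core near a start site. RefSeq windows of 250 bases before a start were at hand for 7 of the 9 members, 9 windows in all, and there was no entry for HMOX1 and SLC7A11. The ARE core was searched as TGACNNNGC on both strands and was found in 3 of the 9 windows, 33.3%, against 10.9% of 35116 RefSeq windows of the same length. The 3 windows belonged to GCLM and to both starts of TXNRD1. A core further from these starts, or one in a form other than TGACNNNGC, would not be seen. A window without a match therefore does not show that the gene lacks an ARE. The RefSeq start lay 71869 bases downstream of the GENCODE gene start for GCLC and 4958 bases for OSGIN1. For NFE2L2 the distances were 127970 and 128566 bases, and for the second TXNRD1 start 71253 bases. Stretches with the core in capitals are shown for GCLM (chr1:93909456-93909680, minus strand), TXNRD1 at its first start (chr12:104215529-104215778, plus strand) and TXNRD1 at its second start (chr12:104286920-104286949, plus strand), together with KEAP1 (chr19:10502783-10502812, minus strand), the last 2 within annotated exons. This window of KEAP1 held the same core bases as that of GCLM, while its other RefSeq window (chr19:10503357-10503606) held no ARE core. KEAP1 is a regulator of NRF2 and not a member. The regulators RBX1 and MAFF also held a core in a window, and the other regulators with a window held none. In GCLM, the second TXNRD1 start and KEAP1 the capitals are the core read from the opposite strand.
GCLM: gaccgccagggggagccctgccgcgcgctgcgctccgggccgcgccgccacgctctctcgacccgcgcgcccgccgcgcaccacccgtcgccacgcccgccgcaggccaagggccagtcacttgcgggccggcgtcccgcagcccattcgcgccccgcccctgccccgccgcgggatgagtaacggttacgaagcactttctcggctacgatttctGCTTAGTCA
TXNRD1 first start: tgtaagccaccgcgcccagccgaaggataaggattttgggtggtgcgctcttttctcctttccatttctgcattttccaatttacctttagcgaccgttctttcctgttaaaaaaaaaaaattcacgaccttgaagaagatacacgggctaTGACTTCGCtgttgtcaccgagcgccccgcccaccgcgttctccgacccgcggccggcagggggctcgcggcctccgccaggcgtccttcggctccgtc
TXNRD1 second start: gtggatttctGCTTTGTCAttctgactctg
KEAP1: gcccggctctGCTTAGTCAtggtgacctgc
The cores lay from -34 to -26 in GCLM (TGACTAAGC on the minus strand of the gene), from -99 to -91 at the first TXNRD1 start (TGACTTCGC), from -102 to -94 at the second (TGACAAAGC) and from -31 to -23 in KEAP1 (TGACTAAGC), counted from the RefSeq start, where -1 is the base just before it. The same KEAP1 window held a second core, TGACACGGC, from -54 to -46. Such a match is a description of the letters and does not show binding.

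The window of OSGIN1 (chr16:83952990-83953221, plus strand) held no ARE core but the AP-1 element TGANTCA, searched on both strands and in capitals here, which an ARE can contain.
OSGIN1: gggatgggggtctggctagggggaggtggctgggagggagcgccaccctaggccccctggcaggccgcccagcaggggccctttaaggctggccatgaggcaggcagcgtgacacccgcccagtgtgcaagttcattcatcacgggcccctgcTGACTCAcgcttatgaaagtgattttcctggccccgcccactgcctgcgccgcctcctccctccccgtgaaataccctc
The AP-1 element lay from -97 to -91. The AP-1 letters were found in 1 of the 9 windows of members, 11.1%, against 6.57% of all windows. The core of the amino acid response element, TGATGNAA, to which ATF4 binds, and a pair of heat shock units, GAANNTTC, were in 0 of the 9 windows, against 3.14% and 5.78% of all windows.

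DMSO replicate 3 stood apart from the other DMSO libraries, and values without it are given beside the results that it moved most. Its Euclidean distance in log2 CPM (counts scaled to library size with TMM factors) to DMSO replicates 1 and 2 was 67.8 and 65.7, against 41.3 between these and 29.6 to 30.6 among the erianin libraries. Between the groups, DMSO replicates 1 and 2 were 61.4 to 66.4 from the erianin libraries. DMSO replicate 3 was 72.3 to 73.3 from them, so its distance to the other controls was about as large as theirs to the erianin libraries. For the members, it differed most in NFE2L2, which was 0.87 higher on the log2 scale than the mean of DMSO replicates 1 and 2, in SRXN1, which differed by -0.65, and in SLC7A11, which was 0.54 higher. HMOX1, TXNRD1 and OSGIN1 differed by -0.05, 0.04 and 0.18 there. What sets this library apart was not tested. Fits without it rest on DMSO replicates 1 and 2 alone for that group. edgeR's biological coefficient of variation, a measure of the spread between libraries, was 0.0421 there, against 0.139 over all libraries. Adjusted p-values with and without DMSO replicate 3 are therefore not directly comparable. Thyroid follicular markers, among them TG and TSHR, did not exceed 0.381 CPM in any library, apart from PAX8, at 643 to 739 CPM with DMSO and 419 to 433 CPM with erianin, and FOXE1, at 1.07 to 2.28. The keratin genes KRT7, KRT8, KRT18 and KRT19 and the mesenchymal VIM and FN1 were abundant, and the epithelial cadherin gene CDH1 was at or under 0.258 CPM. The defining leukocyte genes PTPRC and CD3E and the endothelial genes PECAM1 and CDH5 did not exceed 0.293 CPM in any library, while CD14 was at 1.8 to 4.33 CPM. VWF, another endothelial gene, was at 0.0821 to 0.185 CPM with DMSO and 0.293 to 0.487 CPM with erianin, from 2 to 17 reads per library, and was not called (log2 fold change 1.51, standard error 0.45, edgeR adjusted p = 0.0621). The part of any other cell type in the results was not tested.

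Of the 9 genes, 4 were upregulated with erianin (HMOX1, OSGIN1, TXNRD1 and GCLM) and 0 were downregulated. No member was lower by edgeR even at an unadjusted p under 0.05, and DESeq2 and limma on TPM called 0 lower as well. A gene was called at a Benjamini-Hochberg adjusted p under 0.05 over all tested genes by edgeR's quasi-likelihood test, with an absolute log2 fold change over 0.5. By this rule 5.37% of all tested genes were called higher and 3.36% lower. On the log2 scale the median fold change was 0.38 over the 9 members and 0.00 over all tested genes. In 6 of the 9 members every erianin library lay above every DMSO library in CPM, as did 19.5% of all tested genes. The members were chosen with earlier results of these data known, which limits these comparisons with all genes. HMOX1 stood out in size, with OSGIN1 next, and the changes of TXNRD1 and GCLM were smaller. GCLM was called and its partner GCLC was not, and the ratio between them, given below, did not separate the groups. In bulk RNA, a change in the number of cells that express a gene and a change in RNA per cell cannot be told apart.

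**Figure D1:**
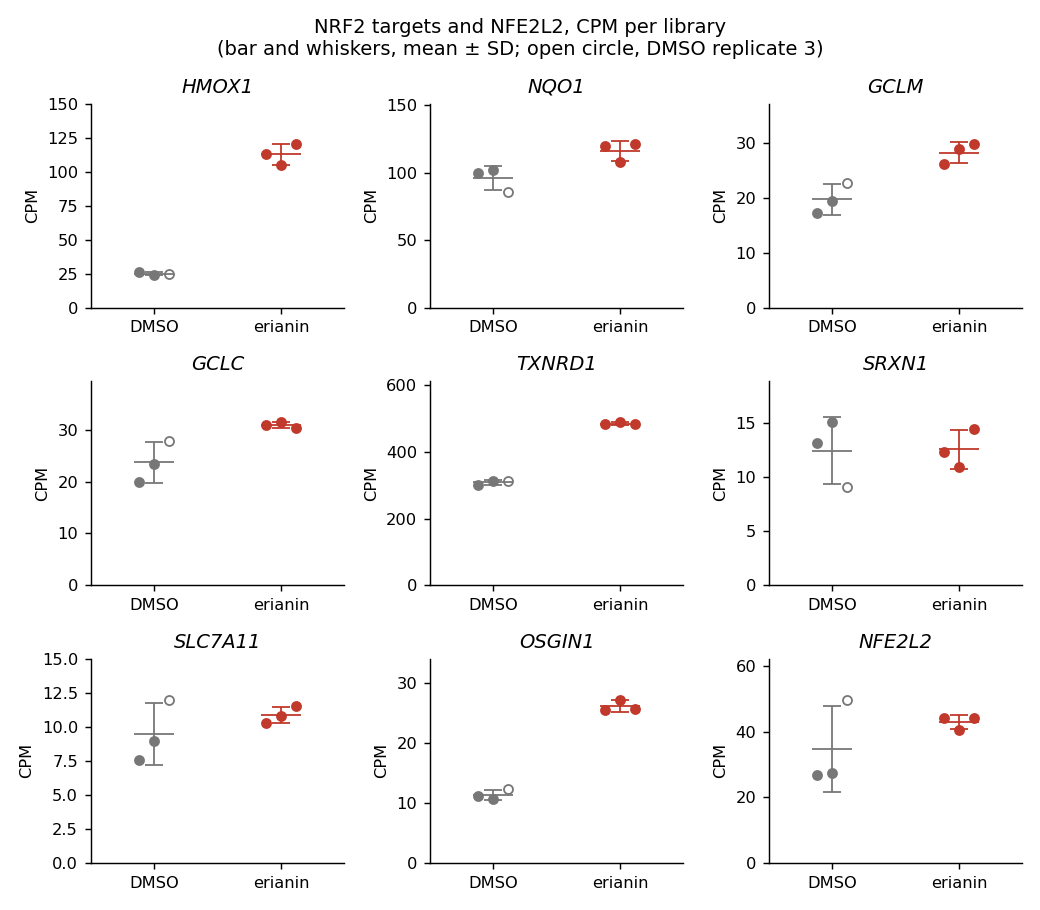
CPM of each of the 9 genes in the 3 DMSO (gray) and 3 erianin (red) libraries, with the mean and SD of each group and with DMSO replicate 3 as an open circle. HMOX1, OSGIN1 and TXNRD1 show 2 tight groups far apart, while DMSO replicate 3 lies at or above the erianin libraries for NFE2L2 and SLC7A11 and below them for SRXN1.

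HMOX1 (ENSG00000100292, chromosome 22 from 35380361 to 35394214, plus strand, GENCODE release 29 on GRCh38, as for all gene positions here) encodes heme oxygenase 1, the inducible enzyme that cleaves heme to biliverdin, iron and carbon monoxide. It stood at 26.5, 24.2 and 24.6 CPM in DMSO replicates 1, 2 and 3 and at 113, 105 and 120 CPM in erianin replicates 1, 2 and 3. The lowest erianin library was thus far above the highest DMSO library, and the spread within each group was narrow. The means were 25.1 ± 1.23 and 112 ± 7.49 CPM (SD, n = 3 each) and differed 4.48-fold (log2 fold change 2.16, standard error 0.09, edgeR adjusted p = 0.000129). By log2 fold change it ranked 76 from the top of 12821 tested genes, and by p it ranked 1. The log2 fold change stayed between 2.11 and 2.36 in the 17 other fits, and HMOX1 was called in each of them.

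Levels of different genes were compared in TPM, which scales counts by gene length. With DMSO, HMOX1 had 38 ± 3.08 TPM (SD, n = 3), and the rest of the heme oxygenase RNA came from HMOX2, the constitutive gene. The share of HMOX1 in the summed TPM of HMOX1 and HMOX2 was 60.3%, 59.3% and 61% in the DMSO libraries and 87.2%, 87.1% and 88.3% in the erianin libraries. The groups did not overlap, with means of 60.2 ± 0.87% and 87.5 ± 0.686% (SD, n = 3 each), a difference of 27.4 percentage points. The exact permutation test, two-sided, gave p = 0.1, the smallest that 3 against 3 allows. HMOX2 itself stood at 102, 97.7 and 92.1 CPM with DMSO and at 96.8, 91 and 92.6 CPM with erianin (log2 fold change -0.06, standard error 0.07, edgeR adjusted p = 0.649). The sign of this small HMOX2 difference turned on TPM values, where it was 0.14. In CPM, which are not scaled by length, the HMOX1 share was 20.5% with DMSO and 54.6% with erianin.

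OSGIN1 (ENSG00000140961, chromosome 16 from 83948282 to 83966332, plus strand) encodes an oxidative stress-induced growth inhibitor. It stood at 11.1, 10.7 and 12.3 CPM with DMSO and at 25.4, 27.2 and 25.7 CPM with erianin. Each erianin library was thus about as far from the DMSO libraries as the others, with group means of 11.4 ± 0.867 and 26.1 ± 0.988 CPM (SD, n = 3 each). The difference passed the test (log2 fold change 1.20, standard error 0.10, edgeR adjusted p = 0.00128), and each of the 17 other fits called it, at 1.15 to 1.39. This is the member whose promoter window, shown above, holds the AP-1 letters.

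TXNRD1 (ENSG00000198431, chromosome 12 from 104215779 to 104350305, plus strand) encodes the cytosolic thioredoxin reductase, a selenoprotein that returns thioredoxin to its reduced form at the cost of NADPH. It was the member with the most reads, at 299, 312 and 313 CPM with DMSO and 482, 489 and 483 CPM with erianin. Both groups were tight and well separated, with means of 308 ± 7.71 and 485 ± 4 CPM (SD, n = 3 each). It passed the test (log2 fold change 0.65, standard error 0.06, edgeR adjusted p = 0.00196), and was called in the 17 other fits, at 0.55 to 0.85. The genes annotated within its span had 652 reads over all libraries against 77643 on TXNRD1.

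SRXN1 (ENSG00000271303, chromosome 20 from 646615 to 653370, minus strand) encodes sulfiredoxin, which repairs overoxidized peroxiredoxins. It stood at 13.2, 15.1 and 9.05 CPM with DMSO and 12.3, 10.9 and 14.5 CPM with erianin, so that the groups overlapped. The log2 fold change was 0.01 with a standard error of 0.20 (edgeR adjusted p = 0.974), and without DMSO replicate 3 it was -0.18 (edgeR adjusted p = 0.156). The groups could therefore not be separated, and the sign depended on the libraries taken.

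GCLC and GCLM encode the catalytic and the modifier subunit of glutamate-cysteine ligase, which makes the first and rate-limiting step of glutathione synthesis. GCLM (ENSG00000023909, chromosome 1 from 93885205 to 93909456, minus strand) stood at 17.2, 19.4 and 22.7 CPM with DMSO and 26.2, 28.9 and 29.8 CPM with erianin. GCLC (ENSG00000001084, chromosome 6 from 53497341 to 53616970, minus strand) stood at 20, 23.4 and 27.8 CPM with DMSO and 31, 31.5 and 30.3 CPM with erianin. For neither gene did the groups overlap, but the DMSO libraries were spread and the highest of them, DMSO replicate 3, came close to the erianin libraries. GCLM passed the test narrowly (log2 fold change 0.52, standard error 0.13, edgeR adjusted p = 0.0328), and GCLC did not pass it (0.38, standard error 0.13, edgeR adjusted p = 0.0896). The call of GCLM was lost in 9 of the 17 other fits, among them a correction for the GC trend of each library, which lowered it to 0.32, and the omission of any library other than DMSO replicate 3, with edgeR adjusted p-values of up to 0.149. Without DMSO replicate 3, both genes were called, at 0.62 and 0.50 (edgeR adjusted p = 1.25e-07 and 1.57e-06).

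The GCLC to GCLM ratio in TPM did not separate the groups. It was 0.437, 0.453 and 0.461 in the DMSO libraries and 0.445, 0.41 and 0.382 in the erianin libraries. The means were 0.45 ± 0.0122 and 0.413 ± 0.0317 (SD, n = 3 each), with an exact two-sided permutation p = 0.2 for the difference of -0.0374. One of the 3 erianin libraries lay within the range of the DMSO libraries.

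SLC7A11 (ENSG00000151012, chromosome 4 from 138164097 to 138242349, minus strand) encodes xCT, the cystine carrier that supplies cysteine for glutathione. It stood at 7.55, 8.94 and 12 CPM with DMSO and 10.3, 10.8 and 11.5 CPM with erianin. The erianin libraries all lay between DMSO replicates 2 and 3, and the log2 fold change was 0.19 (standard error 0.17, edgeR adjusted p = 0.509). Without DMSO replicate 3 it was 0.38 (edgeR adjusted p = 0.00499), still under the fold-change threshold. SLC3A2, which encodes the heavy chain that carries xCT to the membrane, stood at 331, 364 and 189 CPM with DMSO and 410, 418 and 407 CPM with erianin (log2 fold change 0.49, standard error 0.22, edgeR adjusted p = 0.175). Without DMSO replicate 3, which had the lowest SLC3A2 level, the value was 0.24 (edgeR adjusted p = 1.26e-05).

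NQO1 (ENSG00000181019, chromosome 16 from 69706996 to 69726951, minus strand) encodes the quinone reductase that is a standard readout of NRF2. It stood at 100, 102 and 85.9 CPM with DMSO and 120, 108 and 121 CPM with erianin. Every erianin library was above every DMSO library, by as little as 108 against 102 CPM. The difference passed neither threshold (log2 fold change 0.28, standard error 0.09, edgeR adjusted p = 0.0888), and in none of the 17 other fits was NQO1 called, with values between 0.20 and 0.48.

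NFE2L2 (ENSG00000116044, chromosome 2 from 177227595 to 177392697, minus strand) stood at 26.9, 27.5 and 49.7 CPM with DMSO and 44.1, 40.6 and 44.2 CPM with erianin. DMSO replicate 3 was above all erianin libraries, and DMSO replicates 1 and 2 were below them all. The log2 fold change was 0.31 (standard error 0.23, edgeR adjusted p = 0.416), and without DMSO replicate 3 it was 0.66 (edgeR adjusted p = 1.13e-09), past both thresholds. The span of the gene overlaps 11 other annotated genes, AGPS among them, which held 5871 reads over all libraries against 7564 on NFE2L2. The strand setting of the counting is not given in the sources used here, so reads of the overlap may be shared.

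Without DMSO replicate 3, 6 of the 9 members were called higher, the 4 named above with GCLC and NFE2L2, and 0 were called lower. In that fit 11.4% of all tested genes were called higher and 6.11% lower. With any erianin library left out, or without DMSO replicate 1 or 2, the 3 genes HMOX1, OSGIN1 and TXNRD1 were called.

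**Figure D2:**
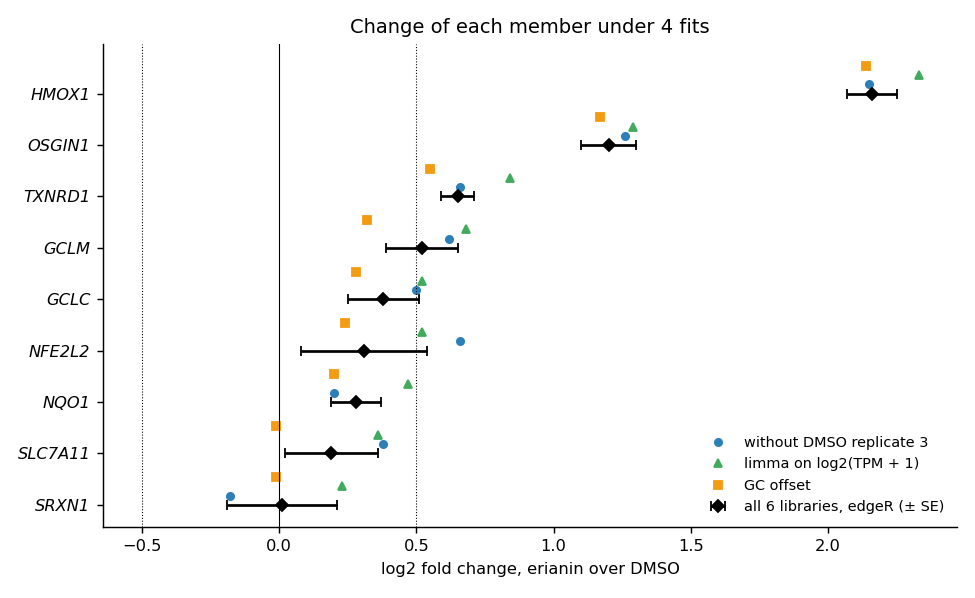
Log2 fold change (erianin over DMSO) of the 9 genes with its standard error in edgeR with all 6 libraries (black), without DMSO replicate 3 (blue), with limma on log2(TPM + 1) (green) and after removal of the GC trend (orange), with dotted lines at ±0.5. HMOX1, OSGIN1 and TXNRD1 lie beyond 0.5 in the 4 fits, GCLM is at 0.32 after removal of the GC trend, and NFE2L2 moves from 0.31 to 0.66 without DMSO replicate 3.

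The order of the members by TPM changed at the top. With DMSO, NQO1 was first at 58.1 ± 8.2 TPM (SD, n = 3), followed by HMOX1 at 38 ± 3.08 and TXNRD1 at 37.6 ± 1.66, whose ranges overlapped. SRXN1 came next at 27.4 ± 7.94 TPM, then GCLM at 12.8 ± 1.22 and NFE2L2 at 10.6 ± 3.37, again overlapping. OSGIN1 followed at 7.47 ± 0.2 TPM, and GCLC at 5.75 ± 0.703 and SLC7A11 at 5.31 ± 0.999 were last and overlapped. With erianin, HMOX1 was first at 195 ± 15.7 TPM, above NQO1 at 80.5 ± 5.93 and TXNRD1 at 67.9 ± 0.68. SRXN1 had 31.5 ± 4.99 TPM, GCLM and OSGIN1 overlapped at 21 ± 1.53 and 19.7 ± 0.574, and NFE2L2, GCLC and SLC7A11 had 15.3 ± 0.919, 8.64 ± 0.0466 and 7.02 ± 0.466. Levels between the groups are not set against each other on this scale, since the TPM of the listed rows sum to 59.1% of their nominal total in DMSO replicate 3, to 72.6% and 73.4% in the other DMSO libraries and to between 75.1% and 78.3% with erianin.

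**Figure D3:**
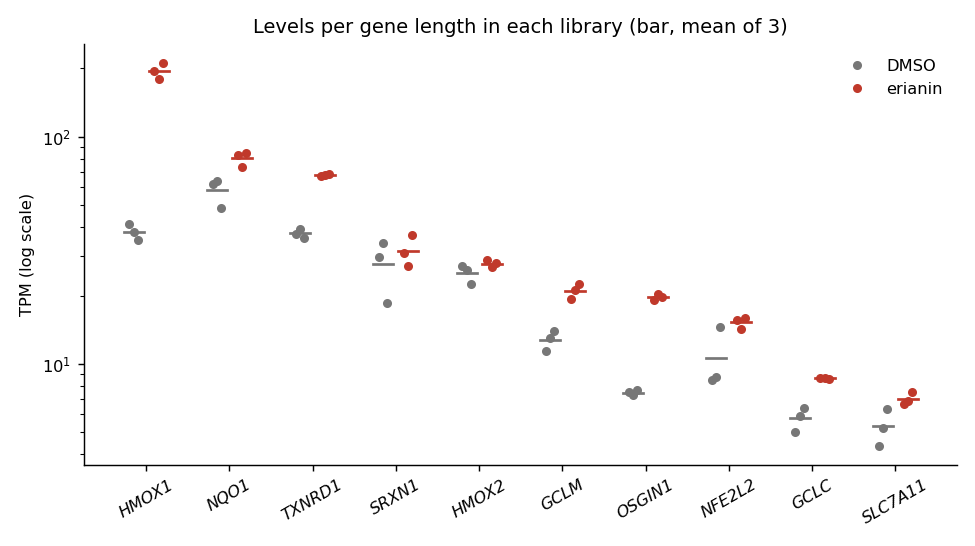
TPM on a log axis of the 9 genes and HMOX2 in each DMSO (gray) and erianin (red) library, with the mean of 3 as a bar, ordered by the erianin mean. HMOX1 has a mean of 38 with DMSO, near TXNRD1 at 37.6, and of 195 with erianin, above all others drawn.

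The 5 genes whose log2 CPM followed HMOX1 most closely over the 6 libraries were CSF3, CXCL8, RND1, SOCS1 and RBM15, with Pearson r of 0.9991, 0.9984, 0.9976, 0.9973 and 0.9972. The genes compared with it were 244 tested genes that averaged 1 CPM or more and changed by 1 or more on the log2 scale in either direction. CSF3 and CXCL8 encode secreted cytokines, SOCS1 an inhibitor of cytokine signaling and RBM15 an RNA-binding protein. The mean CPM with DMSO and erianin was 7.32 and 18.2 for CSF3, 71.8 and 204 for CXCL8, 2.11 and 10.1 for RND1, 0.974 and 2.53 for SOCS1 and 15.3 and 30.7 for RBM15. The 6 points share their libraries and fall into 2 groups, so r mostly reflects the difference between the groups and is given as a description.

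The regulators of NRF2 were described next, as 14 genes of the degradation machinery, of competing and partner factors and of the KEAP1-binding receptor p62. All 14 were tested, with 10 above 0 and 4 below on the log2 scale around a median of 0.17. By the call rule 2 were higher and 0 were lower, where 5.37% and 3.36% of all tested genes were, and 0 regulators were lower at an unadjusted p under 0.05 by edgeR or called lower by DESeq2 or by limma on TPM. The CPM of 4 genes were higher, and those of 2 were lower, in every erianin library than in every DMSO library, where 19.5% and 19.3% of all tested genes were so. SQSTM1, the gene of p62 and itself known as an NRF2 target, rose from 592, 575 and 473 CPM to 829, 782 and 810 CPM (log2 fold change 0.56, standard error 0.10, edgeR adjusted p = 0.0115). Its call was lost without any 1 of the erianin libraries (edgeR adjusted p from 0.0616 to 0.0726) and without DMSO replicate 3, where it was 0.46. BACH2, a relative of BACH1 that was chosen for mention after its values were seen, rose at low counts, from 2, 11 and 14 reads to 45, 43 and 43 reads (log2 fold change 2.04, standard error 0.41, edgeR adjusted p = 0.0187). Its call, too, was lost without any 1 of the erianin libraries or DMSO replicate 2, with edgeR adjusted p-values of up to 0.0852.

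KEAP1 stood at 154, 160 and 105 CPM with DMSO and 116, 103 and 114 CPM with erianin, which did not pass (log2 fold change -0.33, standard error 0.16, edgeR adjusted p = 0.196). DMSO replicate 3 was on the side of the erianin libraries, and without it KEAP1 was called lower, at -0.51 (edgeR adjusted p = 1.28e-10). BACH1 was at 41.6, 39.8 and 51.3 CPM with DMSO and 58.5, 58.7 and 61.2 CPM with erianin, without overlap. It lay under the fold-change threshold (log2 fold change 0.43, standard error 0.11, edgeR adjusted p = 0.041), and without DMSO replicate 3 it was 0.54 and called. Of the small MAF partners, MAFF was at 0.38 on the log2 scale (standard error 0.13, edgeR adjusted p = 0.0919), MAFG at 0.13 (standard error 0.15) and MAFK at 0.24 (standard error 0.20), none of them called. The ligase genes CUL3 and RBX1 were at 0.09 and 0.22, and GSK3B and BTRC, of the KEAP1-independent route of NRF2 degradation, at 0.12 and -0.14. The related factors NFE2L1 and NFE2L3 were at -0.15 and -0.25. Without DMSO replicate 3 the values were 0.24 for MAFF, -0.04 for MAFG, 0.01 for MAFK, 0.44 for CUL3, -0.04 for RBX1, 0.23 for GSK3B, -0.08 for BTRC, -0.10 for NFE2L1 and -0.09 for NFE2L3, none past the fold-change threshold.

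A wider list of 62 genes linked to NRF2 in glutathione, thioredoxin, NADPH, heme and iron, and detoxification pathways was split evenly between the directions. Of its members 61 were matched and 54 tested, with 27 above 0 and 27 below, a median log2 fold change of -0.01, 3 called higher (FTL, AKR1C1 and AKR1C3) and 2 called lower (PGLS and ME3), where 5.37% and 3.36% of all tested genes were called. These counts are near that background. With DMSO replicate 3 left out, 4 were called higher and 4 lower, where 11.4% and 6.11% of all tested genes were. In CPM, 15 were higher and 8 lower in every erianin library than in every DMSO library, where 19.5% and 19.3% of all tested genes were so. The list was chosen with earlier results of these data known. TXNIP was not analysed here.

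Of the 10 heme and iron genes 1 was called higher and 0 lower, where 5.37% and 3.36% of all tested genes were. FTL, the light chain of the iron store ferritin, rose from 2046, 1846 and 2083 CPM to 3327, 3242 and 3351 CPM (log2 fold change 0.73, standard error 0.08, edgeR adjusted p = 0.00263). The FTL call was lost with limma on log2(TPM + 1) for all genes above 0, at 0.93 (limma adjusted p = 0.266), and held in the remaining fits. FTH1, the heavy chain, was at 597, 523 and 689 CPM with DMSO and 688, 695 and 727 CPM with erianin (log2 fold change 0.22, standard error 0.11, edgeR adjusted p = 0.20), and its groups overlapped. Ferritin genes have many near-identical pseudogenes, so reads may be split between copies. BLVRB, a biliverdin reductase that acts after heme oxygenase, was at 0.46 on the log2 scale (standard error 0.26) and was not called. BLVRB was at 0.18 without DMSO replicate 3 (edgeR adjusted p = 0.0109). None of the heme and iron genes was lower by edgeR at an unadjusted p under 0.05, nor called lower by DESeq2 or limma on TPM (0 each).

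Of the 11 tested detoxification genes 2 were called higher, both aldo-keto reductases, where 5.37% of all tested genes were called higher. AKR1C1 rose from 0.246, 0.247 and 0.193 CPM to 1.99, 1.14 and 1.88 CPM (log2 fold change 2.86, standard error 0.35, edgeR adjusted p = 0.00404), a change that rests on few reads. AKR1C3 rose from 4.27, 3.76 and 2.83 CPM to 7.41, 7.38 and 7.48 CPM (log2 fold change 1.04, standard error 0.17, edgeR adjusted p = 0.00923). The AKR1C3 call was lost without any 1 of the erianin libraries (edgeR adjusted p from 0.0577 to 0.0579). The 2 genes are close copies of each other and of AKR1C2, and how the counting split their reads is not stated. The most abundant genes of the list, AKR1B1 and AKR1A1, were at -0.03 and -0.34 and were not called. DMSO replicate 3 was lower in both than the other DMSO libraries, and without it AKR1A1 was called lower, at -0.59 (edgeR adjusted p = 1.23e-11), and AKR1B1 was at -0.25.

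None of the 15 tested glutathione genes and none of the 10 tested thioredoxin genes was called by edgeR in either direction, and 0 of either list had an adjusted p under 0.05. Of all tested genes 5.37% were called higher and 3.36% lower, so 0 calls in lists this short are near that share. At an unadjusted p under 0.05, 3 glutathione genes were higher and 0 lower, and 3 thioredoxin genes were higher and 1 lower. DESeq2 called 1 glutathione gene higher and 0 thioredoxin genes, and limma on TPM called 0 of either. GSTP1 and GPX1, the most abundant of the first list, were at -0.24 (standard error 0.17) and -0.11 (standard error 0.19). PRDX5 and PRDX1, the most abundant of the second, were at -0.07 (standard error 0.23) and 0.51 (standard error 0.21, edgeR adjusted p = 0.14). In all 4 of these genes DMSO replicate 3 lay below the other DMSO libraries, with differences between -0.93 and -0.64 on the log2 scale. Without that library GSTP1 was at -0.43, GPX1 at -0.32, PRDX5 at -0.32 and PRDX1 at 0.28 on the log2 scale, all under the fold-change threshold, with edgeR adjusted p-values of 7.09e-11, 6.6e-08, 2.91e-07 and 6.17e-07.

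Of the 8 genes of the pentose phosphate pathway and of other enzymes that make NADPH, which both glutathione and thioredoxin reductases use, 2 were called lower and 0 higher. Of all tested genes 3.36% were called lower and 5.37% higher. ME3, a mitochondrial malic enzyme, fell from 30.5, 31.6 and 27.2 CPM to 15, 13.9 and 15.1 CPM (log2 fold change -1.02, standard error 0.10, edgeR adjusted p = 0.00214). PGLS, a lactonase of the pentose phosphate pathway that does not itself produce NADPH, fell from 111, 105 and 88.5 CPM to 57.7, 54.5 and 58.9 CPM (log2 fold change -0.83, standard error 0.10, edgeR adjusted p = 0.00403). Both were called in the 17 other fits. TKT and TALDO1, the most abundant of the list, were at -0.23 (standard error 0.08) and -0.03 (standard error 0.13). TALDO1 was at -0.17 without DMSO replicate 3. Of the genes of this list 1 was higher at an unadjusted p under 0.05 by edgeR, with 0 called higher by DESeq2 and 1 by limma on TPM.

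Of 6 tested antioxidant genes that are less dependent on NRF2, 0 were called by edgeR, 0 had an unadjusted p under 0.05, and 0 were called by DESeq2 or by limma on TPM. By edgeR 5.37% of all tested genes were called higher and 3.36% lower, so 0 of 6 is near that share. SOD1, the cytosolic superoxide dismutase, was at 0.08 (standard error 0.10) and its copper chaperone CCS at -0.06 (standard error 0.19), and without DMSO replicate 3 they were at -0.02 and -0.26. SOD2 was not analysed here.

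HMOX1 and SLC7A11 are also driven by other stress pathways, and 12 genes of the ATF4 and heat shock pathways were set beside them. Of these, 4 were called higher and 1 lower, where 5.37% and 3.36% of all tested genes were. On the log2 scale 8 lay above 0 and 4 below, with a median fold change of 0.12. ATF3, a stress-induced bZIP factor, rose from 13.3, 12.3 and 9.12 CPM to 40.3, 42.4 and 39.1 CPM (log2 fold change 1.82, standard error 0.15, edgeR adjusted p = 0.00105). DDIT3, the gene of CHOP, rose from 39.3, 38.5 and 26.2 CPM to 81.5, 84.9 and 82.5 CPM (log2 fold change 1.26, standard error 0.15, edgeR adjusted p = 0.0041). ATF4 itself was at 788, 785 and 874 CPM with DMSO and 651, 628 and 658 CPM with erianin, and its difference of -0.34 on the log2 scale (standard error 0.07, edgeR adjusted p = 0.0233) stayed under the fold-change threshold. The other 3 called genes were chosen for mention after their values were seen. HSPA1A and HSPA1B, near-identical genes of the inducible heat shock protein 70, rose by 0.62 and 0.79 (edgeR adjusted p = 0.00403 and 0.00475). CHAC1, which degrades glutathione and is an ATF4 target, fell by 0.60 on the log2 scale (edgeR adjusted p = 0.0203), a call lost in 9 of the 17 other fits. TRIB3, another target of ATF4, was at 0.02 (standard error 0.16), and at -0.17 without DMSO replicate 3.

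**Figure D4:**
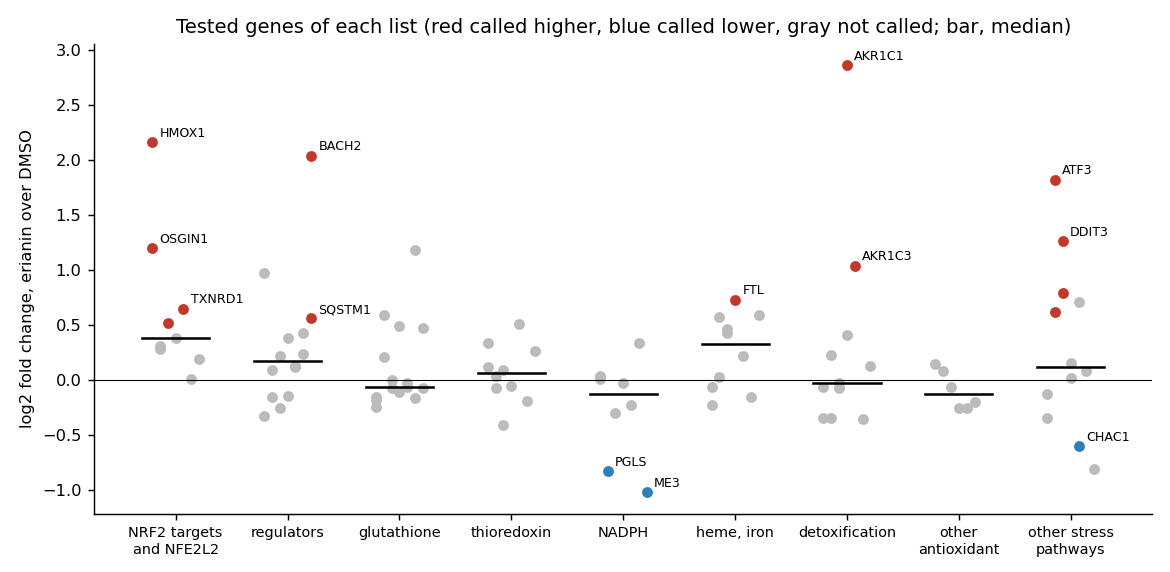
Log2 fold change (erianin over DMSO) of each tested gene by list, with genes called higher in red, lower in blue and others in gray, and the median of each list as a bar. The 9 members have a median of 0.38 and 4 red points. The glutathione, thioredoxin and other antioxidant lists hold no red or blue point, and the NADPH list has 2 blue points. Of all tested genes 5.37% were called higher and 3.36% lower, so 0 calls in lists this short are near that share.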

How the data were processed

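RNA was sequenced from 3 DMSO and 3 erianin libraries of CAL62 cells, on a BGISEQ-500 per the study's methods. The authors deposited a table of unnormalized read counts by gene and one of TPM values, which scale counts by gene length and library total. The submitters' processing notes name fastp 0.23.2, STAR 2.7.10, featureCounts 2.0.1, StringTie 2.2.1 and GRCh38, without roles. The annotation release and the strand setting are not given in the sources used here. If counting ignored strand, overlapping genes share reads.

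Of 65807 rows, 26480 had no identifier (0.00385% to 0.00515% of counts) and were left out. Of 39168 identifiers, 38259 matched a symbol and 159 stood on more than 1 row. Counts were fitted over the whole table with edgeR 4.0.16 in R 4.3.3 (TMM, filterByExpr, glmQLFit and glmQLFTest), with Benjamini-Hochberg adjustment over 12821 genes. The standard error was derived from the F statistic. The thresholds were an adjusted p of 0.05 and an absolute log2 fold change of 0.5. CPM were computed from the counts with TMM factors. Ratios of TPM were compared by exact permutation tests. Depth ranged from 25776301 to 34107727 reads on named genes.

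The alternatives were RLE and upper-quartile factors, DESeq2 1.42.0, omission of the low-count filter, a minimum of 10 counts in each library, limma 3.58.1 on log2(TPM + 1) for genes averaging 1 TPM or more, the same with a pseudocount of 0.1 or for all genes above 0, a block for the replicate number, removal of each library's loess trend on transcript GC content (span 0.5, GENCODE release 29), both together, fold-change thresholds of 0 and 1, and each library left out in turn. The fits were tested on simulated data. The members and lists were chosen with earlier results of these data known. The text names all members, regulators that average 1 CPM or more, and of each other list the 2 genes with the most CPM and up to 2 called genes with the largest change. Genes outside this rule are SLC3A2, BLVRB, HMOX2, BACH2, HSPA1A, HSPA1B and CHAC1, besides markers. Some marker genes are not reported here. Figures were drawn with matplotlib 3.10.9.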

Additional observations from a re-analysis of the deposited data

How the results depend on the processing

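The directions of HMOX1, OSGIN1, TXNRD1, GCLM, GCLC, NQO1 and NFE2L2 were the same in the 17 alternatives, and HMOX1, OSGIN1 and TXNRD1 were called in each of them. The number of members called higher, 4 with all libraries, was 3 without a low-count filter and after removal of the GC trend, 5 on TPM values in each of the 3 limma fits, where GCLC joined, and 2 at a fold-change threshold of 1, which keeps fewer genes by construction. With single libraries left out it ranged from 3 to 6, and 0 members were called lower throughout. The labels do not say whether same-numbered libraries were paired. Correlations of the deviations of same-numbered libraries were 0.00183, 0.0313 and -0.0301, which cannot settle this with 3 libraries per group. With the replicate block 3 members and 1 regulator were called higher, GCLM and BACH2 being lost. In that fit 384 genes in all were called higher and 281 lower. The regulators called higher, 2 with all libraries, were also 1 where each library needed 10 counts and at the threshold of 1, and with libraries left out they ranged from 0 to 2 higher and from 0 to 1 lower. The wider list had 5 called higher with the GC trend removed and the replicate block, 4 called lower without a fold-change threshold, 1 at the threshold of 1, and with libraries left out from 2 to 4 called higher and from 2 to 4 called lower. In CPM in place of TPM the HMOX1 share differed by 34 points and the GCLC to GCLM ratio by -0.0995, since length no longer enters, and with libraries left out they ranged from 26.9 to 27.8 and from -0.0538 to -0.0221. On TPM values the median of all genes moved by 0.18, 0.20 and 0.12, and calls were 92.1%, 91.6% and 92.3% higher, against 61.5% in the main fit, 73.3% with upper-quartile factors and 48.4% and 46.7% after removal of the GC trend without and with the block. On that scale, relative to which HMOX1 at 2.33 and TXNRD1 at 0.84 remain well above the shift, some uncalled genes turned sign: AKR1B1 to 0.21 and 0.22, BTRC to 0.06, CCS to 0.17 and 0.18, GPX1 to 0.13, HMOX2 to 0.14, NFE2L1 to 0.05, PRDX5 to 0.19 and TALDO1 to 0.19. With upper-quartile factors AKR1B1 and TALDO1 were at 0.03, and with the replicate block AKR1B1 was at 0.02. After removal of the GC trend CUL3 was at -0.07, or -0.04 with the block, GSK3B at -0.02, SLC7A11 at -0.01 and SRXN1 at -0.01, or -0.00 with the block, and without a low-count filter SRXN1 and TRIB3 were at -0.00. With libraries left out, uncalled genes that turned sign ranged from -0.25 to 0.11 (AKR1B1), -0.26 to 0.07 (CCS), -0.11 to 0.44 (CUL3), -0.32 to 0.02 (GPX1), -0.04 to 0.24 (MAFG), -0.32 to 0.13 (PRDX5), -0.04 to 0.38 (RBX1), -0.02 to 0.16 (SOD1), -0.18 to 0.18 (SRXN1), -0.17 to 0.08 (TALDO1) and -0.17 to 0.11 (TRIB3). Over all genes, 688 called higher and 431 lower became 1098, 1207 and 1057 higher and 94, 110 and 88 lower on TPM values, 689 lower after removal of the GC trend, 299 lower with upper-quartile factors, 1485 and 797 without DMSO replicate 3, and as few as 172 and 126 without an erianin library. edgeR's biological coefficient of variation was 0.139 over all libraries, 0.0421 without DMSO replicate 3 and 0.159 at most without an erianin library. The causes of these changes were not tested.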
